A study of Mus musculus with 15 samples.

Results

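Cell cycle and DNA replication genes were followed in murine primary cortical neurons exposed to kainate. The list held 58 genes, taken by gene symbol from the platform annotation. A gene counted as measured where a probe of it was detected on at least 3 of the 15 arrays, with a detection score above 0.95, and 45 of the 58 genes met this rule through 68 probes. The whole array gave 9824 measured genes and 14154 probes by the same rule. The measured members comprised 11 of 11 regulators of the G1/S transition, 9 of 13 genes of origin licensing and the replicative helicase, 9 of 10 genes of the replication fork and maintenance methylation, 4 of 4 genes of nucleotide supply and 12 of 20 mitosis genes. No probe was named for Mcm3, Gins1, Ccnb1 and Mki67. Probes for Gmnn, Gins2, Pola1, Ccna2, Ccnb2, Bub1, Ube2c, Kif11 and Cks2 did not reach the detection rule, and of these Bub1 was detected on 1 array. Each gene is given by its brightest detected probe unless stated otherwise.

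Progress from G1 into S phase is driven by D-type cyclins with Cdk4 or Cdk6 and by E-type cyclins with Cdk2, which release E2F transcription factors from the retinoblastoma family. E2F factors switch on the genes that license origins, run the replication fork and supply nucleotides, while many mitosis genes are switched on later, through the MuvB complex acting at CHR elements and through NF-Y acting at CCAAT boxes. Cortical neurons are postmitotic, and dividing cells of a cortical culture are usually progenitors and glia. Expression of cell cycle genes in neurons that are about to die has also been described.

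The cultures came from neocortex of foetal Swiss albino mice at gestation day 15 to 16 and were 5 days old. Kainate, an agonist of kainate and AMPA receptors, was given at 100 µM and RNA was taken after 5 h, 15 h and 24 h (3 arrays each), and 6 arrays carried vehicle controls with a treatment time of 0. All groups shared strain and preparation. The labels do not say that replicates were separate cultures, so p-values cover only the spread among these samples, which may be technical. All controls had time 0 and each group sat at its own positions on the beadchips, so treatment, hours in culture and position cannot be told apart.

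The median number of beads behind a value was 34 or 35. The arrays had median signals of 53.4 to 70.4 intensity units, and 49.5% to 55.2% of the targets were detected. Across probes, arrays of 1 group correlated at 0.978 to 0.996 for the controls and at 0.986 or more in each kainate group. Control replicates 1 and 3, which lay on different beadchips, stood apart from the other 4 controls. Both were above all the other controls for 29 of the 45 members, against 18.9% of all probes tested, and both were below them for Ccnd1 and Ccnd2. All 12 mitosis members were among the 29, but only 2 of the 11 G1/S regulators. Values without these 2 arrays are given below for the counts and wherever they change a call against the controls or move a called value by over 1.5 times. Of 12 neuron markers, 10 were measured, while Rbfox3 and Nefl were not.

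The promoters of the classes differed in the motifs they held. RefSeq windows from 250 bases before to 50 bases after the start (GRCm38.p6) were at hand for 47 of the 58 members. They were searched on both strands for 3 motifs, an E2F site (TTTCCCGC, TTTCGCGC, TTTGCCGC or TTTGGCGC), the CHR element TTTGAA and the CCAAT box CCAAT. An E2F site lay in a window of 50% of the 22 genes of the replication classes and of 5.88% of the 17 mitosis genes, against 2.605% of all 27025 genes with a window. A CHR element lay in 70.6% of the mitosis genes and 13.6% of the replication genes, against 20.2% of all genes. A CCAAT box lay in 88.2% of the mitosis genes, 63.6% of the replication genes and 41.1% of all genes. Within the replication classes the E2F site lay in 66.7% of the 9 licensing and helicase genes and 55.6% of the 9 fork genes but in none of the 4 nucleotide supply genes, and 37.5% of the 8 G1/S genes held it. A match is a run of letters and does not show that a factor binds there. Below are the 250 bases before the start of 3 G1/S or replication genes (Cdk2, Mcm5 and Cdc6) and 3 mitosis genes (Cdk1, Top2a and Cdc20) whose expression is described further on, with the motifs in capitals and overlapping matches joined.
Cdk2: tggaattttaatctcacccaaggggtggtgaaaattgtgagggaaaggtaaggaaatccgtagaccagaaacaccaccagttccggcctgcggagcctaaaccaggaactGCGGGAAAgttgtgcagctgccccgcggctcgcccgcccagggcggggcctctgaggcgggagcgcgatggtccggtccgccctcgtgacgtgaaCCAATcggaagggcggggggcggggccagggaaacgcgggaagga
Mcm5: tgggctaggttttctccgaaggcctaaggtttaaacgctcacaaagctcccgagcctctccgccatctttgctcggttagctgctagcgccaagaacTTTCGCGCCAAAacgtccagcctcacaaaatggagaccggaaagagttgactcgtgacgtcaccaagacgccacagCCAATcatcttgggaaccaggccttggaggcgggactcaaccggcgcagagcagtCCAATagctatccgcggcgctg
Cdc6: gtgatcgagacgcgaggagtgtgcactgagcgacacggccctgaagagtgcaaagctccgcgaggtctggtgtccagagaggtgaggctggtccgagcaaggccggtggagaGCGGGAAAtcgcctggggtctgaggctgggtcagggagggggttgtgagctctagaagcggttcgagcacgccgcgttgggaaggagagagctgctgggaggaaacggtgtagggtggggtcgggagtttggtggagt
Cdk1: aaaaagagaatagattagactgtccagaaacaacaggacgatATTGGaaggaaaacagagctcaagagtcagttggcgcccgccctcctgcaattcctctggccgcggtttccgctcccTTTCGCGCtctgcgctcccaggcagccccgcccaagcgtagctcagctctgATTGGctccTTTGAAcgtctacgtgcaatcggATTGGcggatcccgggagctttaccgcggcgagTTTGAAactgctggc
Top2a: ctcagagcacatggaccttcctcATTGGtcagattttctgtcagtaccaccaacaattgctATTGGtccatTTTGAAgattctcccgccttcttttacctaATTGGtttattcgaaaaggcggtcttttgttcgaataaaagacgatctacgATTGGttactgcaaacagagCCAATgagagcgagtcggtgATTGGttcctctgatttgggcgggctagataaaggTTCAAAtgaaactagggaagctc
Cdc20: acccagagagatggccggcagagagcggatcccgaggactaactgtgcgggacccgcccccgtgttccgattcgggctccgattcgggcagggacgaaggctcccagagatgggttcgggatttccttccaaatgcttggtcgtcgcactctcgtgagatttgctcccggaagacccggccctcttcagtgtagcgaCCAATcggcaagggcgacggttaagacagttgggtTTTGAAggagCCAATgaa
The windows are chr10:128705052-128705301 on the minus strand, chr8:75109259-75109508 on the plus strand and chr11:98907901-98908150 on the plus strand for the first group. They are chr10:69352913-69353162 on the minus strand, chr11:99024190-99024439 on the minus strand and chr4:118437344-118437593 on the minus strand for the mitosis genes. The Mcm5 window holds 2 overlapping E2F sites on opposite strands, whereas Top2a and Cdc20 hold none. Cdk1 was the mitosis gene with an E2F site, and it also holds 2 CHR elements and 3 CCAAT boxes. The window listed for E2f1 had no match to any of the 3 motifs. Other possible starts of E2f1 were not searched, so the absence holds for this window only. Whether this window covers the main E2f1 promoter was not checked, though E2f1 counts among the 8 G1/S genes above.

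**Figure D1:**
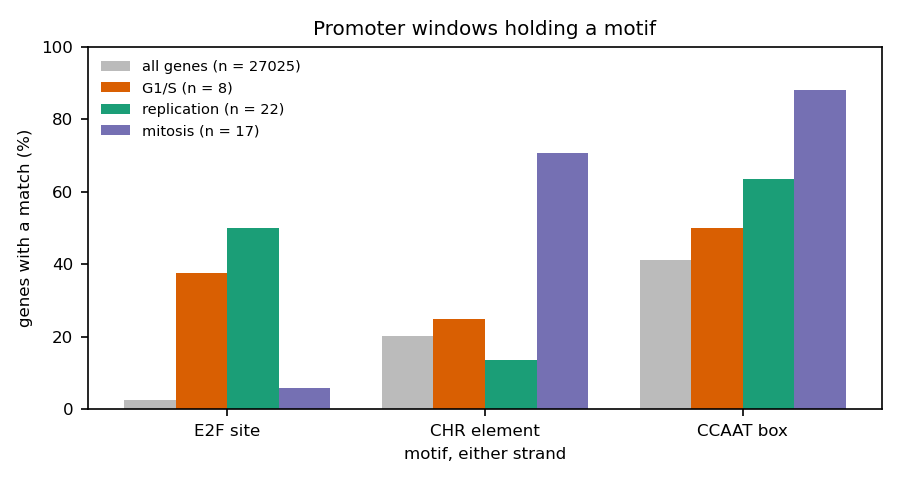
Share of genes (%, vertical axis) with at least 1 match to each motif (horizontal axis) in a promoter window, for all genes with a window (grey), G1/S regulators (orange), the replication classes (green) and mitosis genes (purple). E2F sites were held by 50% of the pooled replication classes, in licensing, helicase and fork genes and in no nucleotide supply gene, and CHR elements by 70.6% of the mitosis class.

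At 5 h, the earliest time, the list was raised as a group. Of the 45 measured members 34 rose, in all 5 classes, and 2 fell, and the median log2 difference was 0.64. Over all probes tested 17.9% rose and 20.8% fell, and the median was -0.03. The mitosis class had the largest median, 1.00 with 10 of 12 rising, followed by nucleotide supply at 0.64 (3 of 4 rising, 1 falling), G1/S regulators at 0.59 (8 of 11), licensing and helicase at 0.58 (8 of 9) and the fork at 0.36 (5 of 9 rising, 1 falling). All 36 called members kept their sign when each beadchip was read alone, but they were called on these same arrays, so this is no separate support. The medians over the 45 members were 0.52, 0.52 and 0.81 on chips 1, 2 and 3. Control replicate 1 lay on chip 1 and control replicate 3 on chip 2. Without control replicates 1 and 3, 39 members rose and 2 fell, and the median was 0.76, with 20.7% of all probes rising and 24.3% falling. Ccne2 and Cdc45 were detected on no control, so the detection rule admitted them through kainate arrays and favoured a higher value there. Of the 43 other members 32 rose and 2 fell. More RNA per cell and more cells of a type cannot be told apart in these bulk samples.

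**Figure D2:**
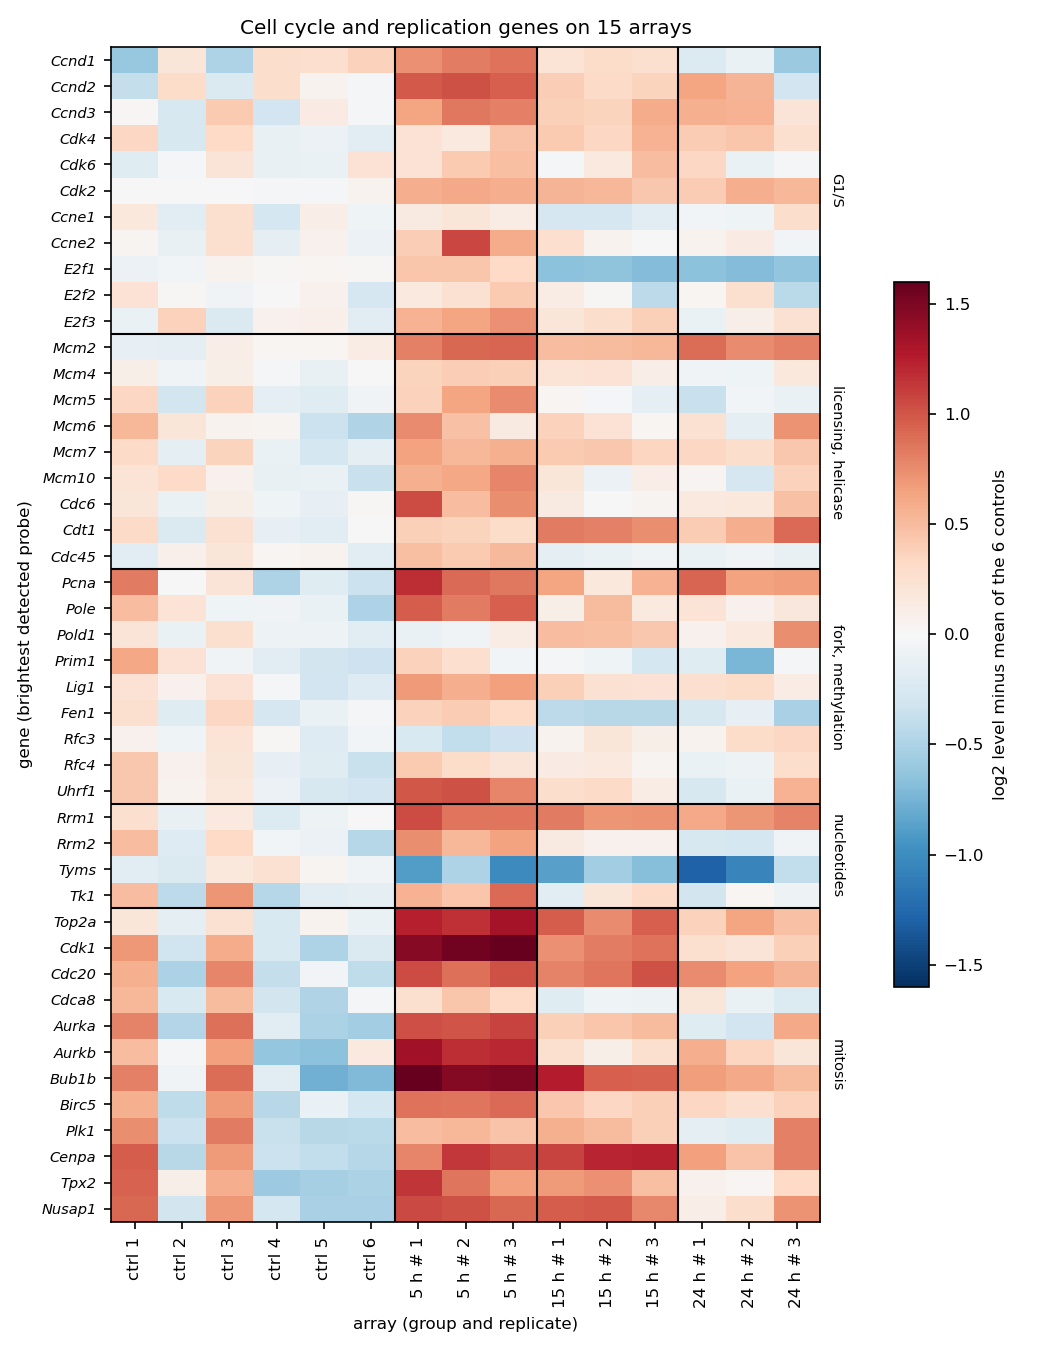
Difference of each array from the mean of the 6 controls (colour, log2) for the 45 measured members (vertical axis, grouped by role) on the 15 arrays (horizontal axis). Most members are red at 5 h and paler at 15 h and 24 h, while control replicates 1 and 3 are red across the mitosis block.

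Of the 11 G1/S regulators 8 rose at 5 h, while Cdk4, Ccne1 and E2f2 were not called. Ccnd2 (ILMN_2700166), a D-type cyclin, measured 9.25, 9.65 and 9.93 on the log2 scale (lowest, median and highest control), then 10.61, 10.65 and 10.59 at 5 h. At 15 h it stood at 10.03, 9.95 and 9.99 and at 24 h at 10.26, 10.18 and 9.33. The 5 h arrays lay above every other array, and the third replicate at 24 h lay within the controls. The increase at 5 h was 1.98-fold (log2 0.98 ± 0.18 SE; limma, adjusted p = 4.91e-04), while the differences of 0.35 at 15 h and 0.29 at 24 h were not called. Ccnd1 (ILMN_2601471) measured 8.10, 8.93 and 9.07 in the controls, where replicates 1 and 3 were the lowest arrays. It reached 9.43, 9.52 and 9.58 at 5 h, 8.92, 9.0 and 8.96 at 15 h and 8.49, 8.60 and 8.11 at 24 h. The rise at 5 h was 1.75-fold (log2 0.80 ± 0.20 SE; limma, adjusted p = 0.00412), and the level at 24 h was 1.11 below that at 5 h on the log2 scale (2.16-fold; adjusted p = 0.00135). With arrays scaled to their median, Ccnd1 also fell below the controls at 24 h (log2 -0.55; limma, adjusted p = 0.0112). Its rise at 5 h without control replicates 1 and 3 was 0.53 (limma, adjusted p = 0.00106), its 24 h value of -0.58 was a called fall (adjusted p = 4.12e-04), and the steps from 5 h to 15 h (-0.55) and from 15 h to 24 h (-0.56) were called too.

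Cdk2 (ILMN_1233064), the kinase partner of E-type cyclins, had the smallest standard error of the class. Its controls spanned 8.09 to 8.18 with a median of 8.12, and the kainate arrays measured 8.71, 8.73 and 8.71 at 5 h, 8.67, 8.65 and 8.56 at 15 h and 8.53, 8.71 and 8.66 at 24 h. No kainate array overlapped a control. The differences were 0.59, 0.50 and 0.51 (each ± 0.07 SE) at the 3 times, 1.5-fold at 5 h, with limma adjusted p-values of 8.41e-06, 2.29e-05 and 2.36e-05. Ccnd3, a further D-type cyclin, also rose at all 3 times (0.76, 0.44 and 0.45), and Cdk4, a partner of D-type cyclins, rose at 15 h (0.43) and 24 h (0.37). Median scaling ended the 24 h calls of both and the 15 h call of Cdk4, and it turned the 24 h value of Cdk4 to -0.01. Leaving out replicate 3 at 15 h ended both 15 h calls (limma, adjusted p 0.0938 for Ccnd3 and 0.0723 for Cdk4). At 24 h the Ccnd3 call was lost without replicate 1 or 2 at 24 h (limma, adjusted p 0.0777 to 0.0820), and the Cdk4 call without those or control replicate 2, 4, 5 or 6 (0.0566 to 0.113). Cdk4 rose at 5 h as well without control replicates 1 and 3 (0.44; limma, adjusted p = 0.00165). Cdk6, the other kinase of D-type cyclins, rose at 5 h (0.37), but not without control replicate 1, 2, 4 or 5 or replicate 2 or 3 at 5 h (limma, adjusted p 0.0535 to 0.136). The cyclin E gene Ccne2 was detected on all 3 arrays at 5 h, on 1 at 15 h and on none of the controls. It was at least 1.35-fold higher at 5 h, which is a description, since it reached the detection rule only through kainate arrays. The other cyclin E gene, Ccne1, was not called at any time (0.15, -0.24 and 0.06).

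E2f1 (ILMN_1231138), which encodes an activator of the E2F family, rose and then fell below the control level. The controls measured 8.32, 8.43 and 8.47, the 5 h arrays 8.85, 8.85 and 8.72, the 15 h arrays 7.76, 7.77 and 7.71 and the 24 h arrays 7.75, 7.72 and 7.78. All 3 arrays at 5 h lay above the controls and all 6 later arrays below them. The gain at 5 h was 1.32-fold (log2 0.40 ± 0.07 SE; limma, adjusted p = 3.56e-04). At 15 h it stood 1.59-fold lower than in the controls (log2 -0.66 ± 0.07 SE; adjusted p = 1.29e-06) and at 24 h 1.58-fold lower (-0.66; adjusted p = 1.56e-06). E2f3 rose at 5 h (0.64), while E2f2 did not pass at any time (0.27, -0.09 and -0.05).

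**Figure D3:**
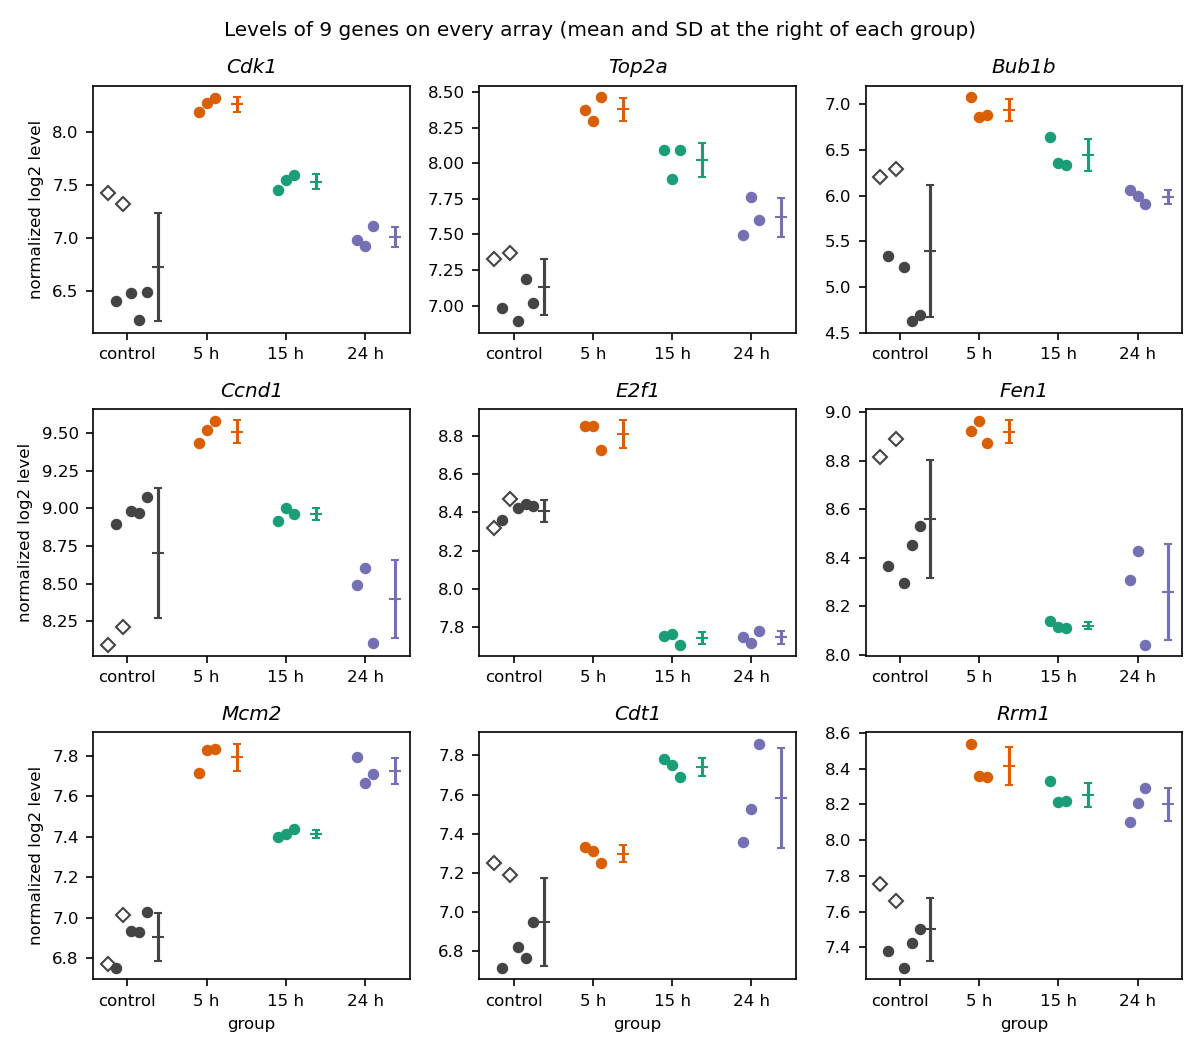
Normalized log2 level (vertical axis) of 9 members on every array, by group (horizontal axis), with the mean and SD of each group to its right. Open diamonds are control replicates 1 and 3, which lie above the other controls for Cdk1, Top2a, Bub1b, Fen1, Cdt1 and Rrm1 and below them for Ccnd1. E2f1 and Fen1 are highest at 5 h and below the control mean at 15 h and 24 h.

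Licensing and helicase genes rose at 5 h in 8 of 9 cases, by 0.35 to 0.89 on the log2 scale, or in 7 of 8 without Cdc45. Mcm2 (ILMN_1250907), a subunit of the MCM helicase, measured 6.75, 6.93 and 7.03 in the controls, 7.72, 7.83 and 7.83 at 5 h, 7.40, 7.41 and 7.44 at 15 h and 7.79, 7.67 and 7.71 at 24 h. Every kainate array lay above every control. The differences of 0.89, 0.51 and 0.82 (each ± 0.08 SE) gave limma adjusted p-values of 5.77e-07, 9.73e-05 and 8.16e-07. Cdc6 (ILMN_2597255), which loads the helicase at origins, measured 5.42, 5.52 and 5.75 in the controls and 6.60, 6.05 and 6.30 at 5 h. It returned to 5.70, 5.55 and 5.60 at 15 h and stood at 5.70, 5.73 and 6.02 at 24 h. Only the 5 h arrays lay wholly above the controls, by 1.70-fold (log2 0.76 ± 0.12 SE; limma, adjusted p = 1.02e-04). Cdc6 was called at 24 h too without control replicates 1 and 3 (0.34; limma, adjusted p = 0.0317).

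Cdt1 (ILMN_2730463), the partner of Cdc6 in helicase loading, followed another course and was highest after 5 h. It measured 6.72, 6.89 and 7.25 in the controls, 7.33, 7.31 and 7.25 at 5 h, 7.78, 7.75 and 7.69 at 15 h and 7.36, 7.53 and 7.86 at 24 h. The 5 h arrays reached into the control range, set by control replicate 1, whereas the later arrays did not. The differences were 0.35, 0.79 and 0.63 (each ± 0.13 SE; limma, adjusted p = 0.0423, 9.64e-05 and 8.02e-04). The 5 h call was lost without control replicate 2, 4, 5 or 6, any array at 5 h or any at 15 h (limma, adjusted p 0.0522 to 0.122). Mcm7 rose at 5 h (0.58), 15 h (0.40) and 24 h (0.35), and median scaling ended the 2 later calls (0.26 and 0.03). The 15 h call of Mcm7 was lost without replicate 1 or 2 at 15 h (limma, adjusted p 0.0532 to 0.0577), and the 24 h call without control replicate 2, 4, 5 or 6 or any array at 24 h (0.0571 to 0.110). Its other detected probe rose at 5 h (0.48) and was not called at 15 h (0.06) or 24 h (-0.05). Mcm4 and Mcm5, further helicase subunits, and Mcm10 rose at 5 h (0.38, 0.58 and 0.65) and were not called later over all arrays. Mcm4 was called higher at 15 h without control replicates 1 and 3 (0.23; limma, adjusted p = 0.0300). With median scaling Mcm4 and Mcm5 were called lower than the controls at 24 h (-0.29 and -0.42; limma, adjusted p = 0.0160 and 0.0281). Mcm6 missed the threshold at 5 h by its brightest probe (0.46; limma, adjusted p = 0.101), but its other detected probe rose (0.80; adjusted p = 4.85e-05), and the brightest probe passed without control replicates 1 and 3 (0.60; adjusted p = 0.0293). Cdc45, which activates the helicase, was detected on the 3 arrays at 5 h and on no other array. It was at least 1.20-fold higher at 5 h, a description only, since it entered the measured genes through those arrays alone.

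Of the 9 fork genes 5 rose and 1 fell at 5 h, with a median of 0.36. Pcna (ILMN_2762026), the sliding clamp, measured 5.82, 6.21 and 7.14 in the controls, 7.49, 7.22 and 7.16 at 5 h, 6.94, 6.48 and 6.87 at 15 h and 7.25, 6.95 and 6.98 at 24 h. The 5 h arrays exceeded all controls, though control replicate 1 lay above the 15 h arrays and within the range at 24 h. Pcna was 1.97-fold higher at 5 h (log2 0.98 ± 0.22 SE; limma, adjusted p = 0.00219) and 1.68-fold higher at 24 h (0.75; adjusted p = 0.0108), and 0.45 at 15 h was not called. The 24 h call was lost without replicate 1 at 24 h (limma, adjusted p = 0.0582) and with median scaling (adjusted p = 0.0906). Pcna was called at all 3 times once control replicates 1 and 3 were left out (1.24, 0.71 and 1.01). Uhrf1 (ILMN_2517041), which guides maintenance DNA methylation to new strands, measured 8.40, 8.68 and 9.14 in the controls and 9.70, 9.72 and 9.49 at 5 h. It was back within the control range at 15 h (8.99, 9.01 and 8.82), while the 24 h arrays read 8.44, 8.59 and 9.26, the last above every control. Its increase at 5 h was 1.91-fold (log2 0.93 ± 0.17 SE; limma, adjusted p = 5.23e-04).

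Fen1 (ILMN_1259473), the flap endonuclease that trims Okazaki fragments, shared the sign change of E2f1. It measured 8.30, 8.49 and 8.89 in the controls, 8.92, 8.97 and 8.87 at 5 h, 8.14, 8.11 and 8.11 at 15 h and 8.31, 8.43 and 8.04 at 24 h. The 15 h arrays lay below all controls, while the 5 h arrays overlapped control replicate 3 and the 24 h arrays overlapped the lower controls. The differences were 0.36 (limma, adjusted p = 0.0334), -0.44 (adjusted p = 0.00961) and -0.30 (adjusted p = 0.0674), each ± 0.13 SE, and without control replicates 1 and 3 they were 0.51, -0.29 and -0.15, the last again not called. The 5 h call was lost without control replicate 2, 4, 5 or 6 or any array at 5 h (limma, adjusted p 0.0513 to 0.107). A fall at 24 h was called with median scaling (-0.53; limma, adjusted p = 0.00343). It was also called without control replicate 2 or 4 or replicate 2 at 24 h (limma, adjusted p 0.0334 to 0.0485). Rfc3 (ILMN_1257617), a subunit of the clamp loader, was the fork gene that fell at 5 h. Its controls measured 7.25, 7.45 and 7.69, the 5 h arrays 7.21, 7.06 and 7.13, the 15 h arrays 7.51, 7.66 and 7.56 and the 24 h arrays 7.52, 7.75 and 7.79. The 5 h arrays lay below every other array, by -0.33 ± 0.10 SE against the controls (limma, adjusted p = 0.0146). This call was lost without replicate 2 at 5 h (limma, adjusted p = 0.0735) and with median scaling (-0.17; adjusted p = 0.168). Rfc3 also rose at 24 h without control replicates 1 and 3 (0.30; limma, adjusted p = 0.0134).

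Pold1 (ILMN_2655577), the catalytic subunit of polymerase delta, was not called at 5 h (-0.01) and rose at 15 h. It measured 7.78, 7.88 and 8.21 in the controls, 7.86, 7.91 and 8.08 at 5 h, 8.45, 8.45 and 8.40 at 15 h and 8.02, 8.12 and 8.71 at 24 h. The 15 h arrays alone lay wholly above the controls (log2 0.47 ± 0.14 SE; limma, adjusted p = 0.0103). Pole, the catalytic subunit of polymerase epsilon, and Lig1, the ligase of Okazaki fragments, rose at 5 h (0.92 and 0.64) and were not called later. Prim1 and Rfc4, of the primase and the clamp loader, did not pass at any time. Leaving out control replicates 1 and 3 added calls of Pold1 at 24 h (0.44), Pole at 15 h (0.36), Lig1 at 15 h and 24 h (0.40 and 0.34) and Rfc4 at 5 h (0.46).

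Of the 4 nucleotide supply genes 3 rose at 5 h, and the direction of Tyms depended on the probe. Rrm1 (ILMN_1258715), the large subunit of ribonucleotide reductase, measured 7.29, 7.46 and 7.76 in the controls, 8.54, 8.36 and 8.35 at 5 h, 8.33, 8.21 and 8.22 at 15 h and 8.10, 8.21 and 8.29 at 24 h. All kainate arrays lay above all controls. It was higher by 0.92, 0.75 and 0.70 (each ± 0.10 SE; limma, adjusted p = 4.48e-06, 1.75e-05 and 4.10e-05). Its partner subunit Rrm2 (0.64) and the thymidine kinase Tk1 (0.63) rose at 5 h only among the 3 times, and the Tk1 call was lost without control replicate 2, 4, 5 or 6 or any 5 h array (limma, adjusted p 0.0510 to 0.162). Both were called at 15 h too without control replicates 1 and 3 (0.29 and 0.41; limma, adjusted p = 0.0307 and 0.0265), and the 5 h value of Tk1 was 0.94. The dimmer detected probe of Rrm2 (ILMN_1257469) also rose at 5 h, and it was called lower than the controls at 24 h. For Tyms, the thymidylate synthase, the brightest probe (ILMN_2441895) measured 7.26, 7.50 and 7.74 in the controls, 6.60, 7.01 and 6.48 at 5 h, 6.63, 6.94 and 6.82 at 15 h and 6.21, 6.44 and 7.10 at 24 h. Every kainate array of this probe lay below every control, by -0.80, -0.70 and -0.92 (each ± 0.17 SE; limma, adjusted p = 0.00171, 0.00323 and 4.15e-04). Its other detected probes, ILMN_1247173 and ILMN_2484707, rose at 5 h (0.61 and 0.57; limma, adjusted p = 0.0225 and 0.00616) and were not called later. The direction of Tyms is therefore not settled by these arrays. Tyms was the only one of 14 members with several detected probes whose probes were called in opposite directions. Against the controls, all detected probes shared a call for 9 of the 14 at 5 h, 11 at 15 h and 8 at 24 h. At 5 h, 2 of 4 Ccnd1 probes, 1 of 2 E2f3 probes and 2 of 3 Lig1 probes rose. For Cdk2, 4 of 4 probes rose at 5 h, 2 at 15 h and 3 at 24 h. At 24 h, 2 of 3 Cdk4 probes and 1 of 3 Cdc20 probes rose.

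The mitosis class moved most and also varied most among the controls. Cdk1 (ILMN_2657844), the kinase that drives entry into mitosis, measured 6.23, 6.49 and 7.42 in the controls, 8.18, 8.27 and 8.32 at 5 h, 7.46, 7.55 and 7.59 at 15 h and 6.98, 6.93 and 7.11 at 24 h. Control replicates 1 and 3, at 7.42 and 7.32, were above all 24 h arrays and just below the 15 h arrays. The fold was 2.89 at 5 h (log2 1.53 ± 0.21 SE; limma, adjusted p = 4.24e-05) and 1.75 at 15 h (0.80; adjusted p = 0.00584), and the 24 h difference of 0.28 was not called. Without these 2 controls the differences were 1.85, 1.13 and 0.61, and all 3 passed. Bub1b (ILMN_2774007), a spindle checkpoint kinase, measured 4.62, 5.28 and 6.29 in the controls, where 4 of 6 arrays detected it. It rose to 7.08, 6.86 and 6.88 at 5 h and stood at 6.65, 6.35 and 6.34 at 15 h and at 6.06, 6.00 and 5.91 at 24 h. The 5 h and 15 h arrays exceeded all controls and the 24 h arrays did not. The gains were 2.92-fold at 5 h (log2 1.55 ± 0.30 SE; limma, adjusted p = 7.16e-04) and 2.08-fold at 15 h (1.05; adjusted p = 0.00851), and 0.59 at 24 h was not called. Bub1b passed at all 3 times without these 2 controls (1.97, 1.48 and 1.02).

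Top2a (ILMN_1214399), the topoisomerase that untangles sister chromatids, separated the groups without overlap. Its controls measured 6.89, 7.10 and 7.37, the 5 h arrays 8.37, 8.30 and 8.46, the 15 h arrays 8.10, 7.89 and 8.09 and the 24 h arrays 7.50, 7.77 and 7.60. All kainate arrays lay above all controls, in the order 5 h, 15 h and 24 h with no overlap between these groups. The differences were 1.25, 0.90 and 0.49 (each ± 0.11 SE; limma, adjusted p = 3.99e-07, 7.12e-06 and 0.00203), and the 24 h call was lost with median scaling (0.22; adjusted p = 0.121). Without control replicates 1 and 3 all 3 calls held, at 1.36, 1.01 and 0.60.

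Cenpa (ILMN_1236574), the histone variant of centromeres, measured 8.32, 8.41 and 9.74 in the controls, 9.56, 9.91 and 9.84 at 5 h, 9.86, 9.99 and 10.01 at 15 h and 9.43, 9.23 and 9.58 at 24 h. Control replicate 1 read 9.74, inside the 5 h range, and replicate 3 read 9.46, inside the 24 h range, and only the 15 h arrays cleared them. It rose by 0.99 at 5 h and 1.18 at 15 h (each ± 0.27 SE; limma, adjusted p = 0.00893 and 0.00206), with 0.64 at 24 h not called. It passed at all 3 times without them (1.40, 1.59 and 1.05). Cdc20 (ILMN_2612207), an activator of the anaphase-promoting complex, measured 6.50, 6.79 and 7.78 in the controls, 8.04, 7.89 and 8.02 at 5 h, 7.80, 7.86 and 8.02 at 15 h and 7.75, 7.65 and 7.55 at 24 h. The 5 h and 15 h arrays lay above every control and the 24 h arrays did not. It rose by 0.98, 0.89 and 0.65 (each ± 0.23 SE; limma, adjusted p = 0.00326, 0.00468 and 0.0326). The 24 h call was lost without control replicate 2, 4 or 6 or any array at 24 h (limma, adjusted p 0.0584 to 0.106), and with median scaling (0.33; adjusted p = 0.203). With the 2 controls left out it was 1.32, 1.23 and 0.98, and all 3 passed.

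Over all arrays the aurora kinases were called at 5 h and at neither later time. Aurka (ILMN_2617228), which acts at spindle poles, measured 6.37, 6.61 and 7.81 in the controls, 7.96, 7.93 and 8.0 at 5 h, 7.30, 7.37 and 7.42 at 15 h and 6.73, 6.62 and 7.53 at 24 h. The third replicate at 24 h was above the 15 h arrays, and control replicates 1 and 3 (7.72 and 7.81) were higher still. The increase at 5 h was 2.05-fold (log2 1.04 ± 0.30 SE; limma, adjusted p = 0.0123). Aurkb (ILMN_1239230), of the chromosomal passenger complex, measured 5.24, 5.97 and 6.56 in the controls and 7.24, 7.08 and 7.11 at 5 h. It was within the control range at 15 h (6.17, 6.00 and 6.16) and at 24 h (6.48, 6.24 and 6.09). The 5 h gain was 2.36-fold (log2 1.24 ± 0.24 SE; limma, adjusted p = 6.36e-04). Without control replicates 1 and 3 both kinases passed at all 3 times (Aurka 1.46, 0.86 and 0.46; Aurkb 1.53, 0.49 and 0.66). Birc5 and Cdca8, further members of that complex, differed by 0.88 at 5 h, which passed, and 0.34, which did not. The spindle genes Tpx2 (0.88) and Nusap1 (1.00) rose at 5 h, Tpx2 not without replicate 1 or 2 at 5 h (limma, adjusted p 0.0545 to 0.0957), and the mitotic kinase Plk1 was not called at any time (0.50, 0.49 and 0.15). With these controls left out, Birc5, Plk1, Tpx2 and Nusap1 passed at all 3 times (Plk1 0.89, 0.88 and 0.55), and Cdca8 passed at 5 h (0.60).

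Taken array by array, the median of the 12 mitosis genes showed how far control replicates 1 and 3 reached. As a log2 difference from the control mean it was 0.72 and 0.68 on these 2 arrays and -0.48 to -0.31 on the other 4 controls. The kainate arrays stood at 1.01 to 1.05 at 5 h, at 0.63 to 0.75 at 15 h and at 0.27 to 0.49 at 24 h. Both arrays therefore lay below the 5 h arrays, within the range of the 15 h arrays and above the 24 h arrays. For the G1/S class the medians of these controls were 0.00 and 0.06, within the -0.04 to 0.07 of the others, and the 5 h arrays stood at 0.44 to 0.60. Without the 2 arrays, 12, 11 and 11 of the 12 mitosis members rose at 5 h, 15 h and 24 h, with medians of 1.38, 1.01 and 0.62. Why the 2 controls differ was not tested.

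**Figure D4:**
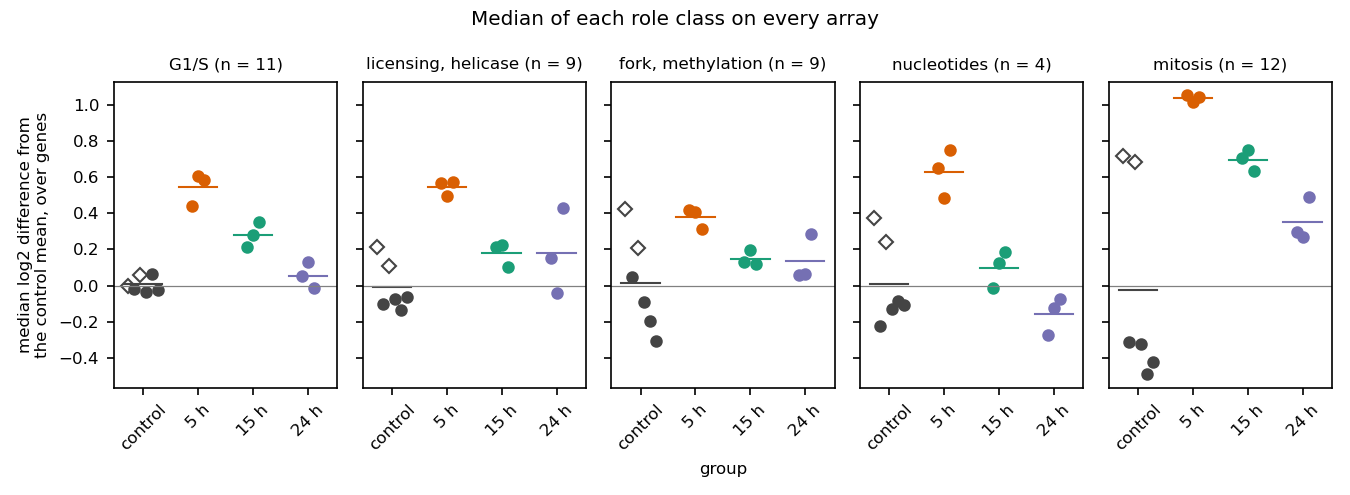
Median over the genes of each role class of the log2 difference from the control mean (vertical axis), for every array by group (horizontal axis), with a bar at each group's mean. Open diamonds are control replicates 1 and 3, which in the mitosis panel lie at 0.72 and 0.68, far above the other controls.

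By 15 h fewer members were raised. Of the 45 members 14 rose and 3 fell against the controls (median 0.26), while 21.8% of all probes tested rose and 23.4% fell (median -0.03). The split was 6 up and 0 down in mitosis (median 0.72), 3 and 1 in G1/S (0.26), 3 and 0 in licensing and helicase (0.18), 1 and 1 at the fork (0.24) and 1 and 1 in nucleotide supply (0.10). The 3 that fell were E2f1, Fen1 and, by its brightest probe, Tyms. Without control replicates 1 and 3, 25 rose and 3 fell (median 0.39). The share of all probes called was 45.3% with these arrays and 49.9% without them (24.1% rising and 25.7% falling).

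At 24 h the members rose about as often as all probes. There were 10 up and 2 down (median 0.15), against 21.1% of all probes up and 21.9% down, 43.0% in all (median -0.01). The mitosis class gave 2 up (median 0.34), licensing and helicase 3 up (0.26), G1/S 3 up and 1 down (0.07), the fork 1 up (0.15) and nucleotide supply 1 up and 1 down (-0.16). The share rising, 22.2%, was close to that background. Without control replicates 1 and 3 the counts were 23 up and 3 down (median 0.34), with 23.4% of probes up and 24.3% down. With arrays scaled to their median the 24 h split turned to 4 up and 6 down and the median to -0.01, where the median of all probes was -0.11. The 24 h direction of the list thus depended on the scaling, but E2f1 fell, the brightest of the 3 Tyms probes fell, and Cdk2, Mcm2, Cdt1 and Rrm1 rose, under quantile normalization, median scaling and the authors' ratio alike.

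Between the kainate times, most of the movement lay between 5 h and 15 h. From 5 h to 15 h, 17 members fell and 3 rose (median -0.37), against 16.0% of all probes falling and 17.0% rising, 33.0% in all (median 0.01). The 3 that rose were Cdt1, Pold1 and Rfc3, and median scaling ended all 3 calls and gave 24 falling. The count of 20 called members fell to 11 without replicate 1 at 15 h. From 15 h to 24 h, limma called 0 members at the adjusted threshold and 4 at an unadjusted p below 0.05, 2 in each direction, while 0.643% of all probes were called (0.219% higher, 0.424% lower). In that comparison median scaling called 1 member, Top2a, lower (limma, adjusted p = 0.0431), and leaving out control replicates 1 and 3 called 3 lower. From 5 h to 24 h, 21 members fell and 1 rose (median -0.50), against 17.0% of all probes falling and 18.6% rising. The 21 that fell were all among the 34 that had risen at 5 h, and the 2 counts share the 5 h arrays. Of those 34 members, 12 were still above the controls at 15 h and 9 at 24 h. The 8 members above the controls at all 3 times were Ccnd3, Cdk2, Mcm2, Mcm7, Cdt1, Rrm1, Top2a and Cdc20. The share of all probes above them at all 3 times was not counted. Median scaling ended the 24 h calls of Ccnd3, Mcm7, Top2a and Cdc20. Leaving out control replicates 1 and 3 added Cdk4, Pcna, Lig1, Cdk1, Aurka, Aurkb, Bub1b, Birc5, Plk1, Cenpa, Tpx2 and Nusap1 to the 8. Over all arrays Ccne1, E2f2, Mcm6, Prim1, Rfc4, Cdca8 and Plk1 were not called against the controls at any time. Of these 7, Mcm6, Rfc4, Cdca8 and Plk1 were called without control replicates 1 and 3.

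The other genes of the pathway, held in lists apart from the 58, are read against the shares of all probes given above. These were 17.9% rising and 20.8% falling at 5 h, 21.8% and 23.4% at 15 h, and 21.1% and 21.9% at 24 h. Of 24 other mitosis genes measured, 15 rose and none fell at 5 h (median 0.55), and 5 rose and 1 fell at 15 h. Control replicates 1 and 3 were both above the other controls for 16 of these 24 genes, and without them 21 rose at 5 h (median 0.84) and 15 rose and 1 fell at 15 h (median 0.54). They included Pbk, a mitotic kinase (1.56 ± 0.35 SE at 5 h; limma, adjusted p = 0.00208), and the spindle protein Ckap2 (1.14 at 5 h and 1.21 at 15 h). Of 28 other replication genes, 6 rose and 6 fell at 5 h (median 0.02), 21.4% each way and about the background, and 3 rose and 10 fell at 15 h. Without the 2 controls these counts were 8 and 7 at 5 h and 3 and 8 at 15 h. Here Dbf4, the activator of the Cdc7 kinase, rose (1.36 ± 0.16 SE at 5 h; limma, adjusted p = 8.55e-06), while the origin recognition subunit Orc3 fell at 5 h (-0.84) and the dUTPase Dut fell at 15 h (-0.97) and 24 h (-1.15). Among 7 CDK inhibitors, 1 rose at 5 h, 3 rose and 2 fell at 15 h and 3 rose and 1 fell at 24 h, and without the 2 controls 2 rose and 1 fell at 5 h and 3 rose and 1 fell at each later time. Cdkn1a, which encodes p21, rose at 15 h (0.96 ± 0.18 SE; limma, adjusted p = 4.46e-04) and Cdkn2c at 15 h and 24 h (0.89 and 0.84). Cdkn1b, which encodes p27, was the 1 that rose at 5 h (0.35 ± 0.13 SE; limma, adjusted p = 0.0470), and it rose at 24 h too (0.94).

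Of 11 measured pocket proteins and partners of E2F, MuvB and MYC, 5 rose and 1 fell at 5 h (5 and 2 without control replicates 1 and 3). The MuvB subunit Lin54 rose (1.46 ± 0.29 SE; limma, adjusted p = 8.20e-04) and the MYC relative Mycl fell (-1.38 ± 0.08 SE; adjusted p = 1.58e-09). Among 8 checkpoint kinases and CDC25 phosphatases, 1 rose and 2 fell at 5 h (2 and 1 without these controls), and the clamp subunits Hus1 (0.90) and Rad1 (-0.55) moved in opposite directions at 15 h. Of 18 cyclins and CDKs outside the G1/S and mitosis roles, 3 rose and 5 fell at 5 h (4 and 6 without them). Ccno, which is known for its part in making multiciliated cells, rose most of them, by 4.47 ± 0.14 SE at 5 h (limma, adjusted p = 2.79e-12), and remained above the controls at 15 h (2.76) and 24 h (2.52). Cdk5, a kinase known for its roles in neurons, fell at 15 h (-1.35 ± 0.11 SE; limma, adjusted p = 4.40e-08) and 24 h (-1.17).

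Markers of other cell types moved in the same samples, in which 17.9%, 21.8% and 21.1% of all probes rose and 20.8%, 23.4% and 21.9% fell at 5 h, 15 h and 24 h. Of 12 measured neural progenitor markers, a list that also holds Ccnd2, 5, 10 and 7 rose at 5 h, 15 h and 24 h and none fell. Their summed linear level lay between 10076 and 10777 in the controls, between 15753 and 16809 at 5 h, between 24890 and 26170 at 15 h and between 21168 and 23015 at 24 h. Of 10 astrocyte markers 6, 7 and 6 rose, and 1 fell at 24 h, with sums between 15388 and 16196 in the controls, 19857 and 20428 at 5 h, 31583 and 33128 at 15 h, and 26718 and 30816 at 24 h. Both sums were highest at 15 h. The fibroblast and meningeal list, with 5 of 8 markers measured, had its highest sum at 5 h, but its median log2 difference was similar at 5 h and 24 h (0.45, 0.32 and 0.41 at the 3 times). Of these 5 markers 4 rose at 5 h, and 3 rose and 1 fell at 15 h and at 24 h, with sums between 1372 and 1513 in the controls, 1716 and 1749 at 5 h, 1122 and 1251 at 15 h, and 863 and 1020 at 24 h. Of 10 neuron markers 2 fell and 1 rose at 5 h and 5 fell at 15 h and at 24 h, and their sum went from 30208 to 35444 in the controls to between 31803 and 34174 at 5 h, between 22137 and 23438 at 15 h and between 19261 and 23451 at 24 h. Microglial markers were sparse, with 5 of 11 measured and Csf1r, Itgam, Ptprc, Cd68, Tyrobp and Fcer1g not measured. Of the 5, none rose and 1 fell at 5 h, 3 rose and 1 fell at 15 h and 3 rose at 24 h, with sums between 235 and 274 in the controls, 221 and 230 at 5 h, 475 and 510 at 15 h, and 407 and 660 at 24 h. Of 4 measured endothelial and mural markers, 2 rose at 15 h and 2 at 24 h, with sums between 437 and 708 in the controls, 640 and 718 at 5 h, 892 and 1033 at 15 h, and 808 and 1483 at 24 h. Of 7 measured oligodendrocyte lineage markers, 1 rose and 2 fell at 5 h and 3 rose at 24 h, with sums between 11127 and 12452 in the controls, 8386 and 9051 at 5 h, 10589 and 11350 at 15 h, and 12661 and 15248 at 24 h. Pax6 and Btg2 of the progenitor list and Aldh1l1, Slc1a2 and S100b of the astrocyte list were also among the markers not measured. The part of these cells in the changes of the cell cycle genes was not tested.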

How the data were processed

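Total RNA of 15 samples was measured on mouse Illumina bead arrays, per the labels. The bead intensity of each target was exported from BeadStudio 3.2.3 by the authors without normalization, per the file headers. The deposited detection score is a fraction, 1 minus the detection p-value, and the number of beads behind each intensity was deposited beside it. The authors' normalized table holds a linear ratio, each intensity divided by the array's median and by the control median, a rule derived from the deposited values. Another 72 columns of 9 arrays that matched no sample were not used.

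The deposited intensity was background-corrected (offset 16), quantile-normalized and put on the log2 scale with limma's neqc. It left out 1 target with signals over 1000 and a detection p above 0, a repair known from earlier work on these arrays. Means of the 4 groups were fitted over the 15 arrays (limma lmFit, eBayes), with Benjamini-Hochberg adjustment over 14154 probes and a threshold of 0.05. A member rose or fell only where it passed that threshold. Differences are on the log2 scale with model SE, 15.8 degrees of freedom, and 6 controls and 3 arrays per time. "At least" folds set a group with no detected array at the lowest detected signal. Symbols came from the platform annotation, updated to GRCm38.p6 (20854 of 24607 targets with 1 symbol). The number of arrays limits the precision, and the fit was tested on simulated data.

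Per-array values are printed for the members with the largest called differences, 2 in each class and time, for those that fell, and for those whose later change opposed the 5 h change. The members and lists were chosen with earlier results of these data known. Same-numbered kainate arrays share a beadchip, and their deviations from the group means correlated at -0.114 to 0.288, with 2 of 9 pairs above 0.1, so the numbers were not taken as pairs. Alternatives covered the scaling, the detection filter, the beadchip or replicate number as a block, fits of only the 2 groups compared, and arrays left out. Software was limma 3.58.1 in R 4.3.3 and, for tables and figures, matplotlib 3.10.9 in Python 3.11.15.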

Additional observations from a re-analysis of the deposited data

Results flagged for a closer look

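Over all 15 arrays the difference between kainate and control arrays changed sign with time for 2 members, and the test of the difference between times passed. E2f1 was 0.40 above the controls at 5 h and 0.66 below them later, so that it fell by 1.06 from 5 h to 15 h (log2 -1.06 ± 0.08 SE; limma, adjusted p = 2.31e-07) and by 1.06 from 5 h to 24 h (-1.06; adjusted p = 1.74e-07). The 3 arrays at 5 h lay above all 6 controls and the 6 later arrays below them. Fen1 was 0.36 above the controls at 5 h and 0.44 below them at 15 h, a difference between the times of -0.80 ± 0.15 SE (limma, adjusted p = 5.93e-04). Its 5 h call was lost without control replicate 2, 4, 5 or 6 or any array at 5 h (limma, adjusted p 0.0513 to 0.107). At 24 h Fen1 was not called over all 15 arrays (-0.30), but median scaling called it lower (-0.53; limma, adjusted p = 0.00343). Ccnd1 joined E2f1 and Fen1 without control replicates 1 and 3, at 0.53 above the controls at 5 h and -0.58 at 24 h (limma, adjusted p = 0.00106 and 4.12e-04), with -1.11 between these times (adjusted p = 5.33e-06). Median scaling also called Ccnd1 lower at 24 h (-0.55; limma, adjusted p = 0.0112). Under that scaling Mcm4 and Mcm5, both called higher at 5 h, were called lower at 24 h too (-0.29 and -0.42; limma, adjusted p = 0.0160 and 0.0281).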

How the results depend on the processing

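The members called against the controls were 36 at 5 h, 17 at 15 h and 12 at 24 h, and leaving out 1 array gave 30 to 39, 15 to 22 and 9 to 17. Between times the same step gave 11 to 22 (20 for 15 h minus 5 h), 16 to 25 (22 for 24 h minus 5 h) and 0 (24 h minus 15 h). Without both control replicates 1 and 3, 28 were called at 15 h, 26 at 24 h and 3 between 15 h and 24 h. Median scaling and the authors' ratio each called 1 member between 15 h and 24 h. Both turned the G1/S median at 24 h from 0.07 below 0 (-0.0143 and -0.0146), Cdk4 at 24 h from 0.37 below 0 (-0.00827 and -0.00864) and Mcm4 at 24 h from 0.01 to -0.29. The G1/S median from 15 h to 24 h turned from -0.06 to 0.00437 over the probes detected on all 15 arrays. With median scaling the share of called probes that were higher went from 46.3% to 59.4% at 5 h, from 49.1% to 25.5% at 24 h, from 51.6% to 29.9% between 5 h and 15 h, from 34.1% to 1.41% between 15 h and 24 h and from 52.3% to 14.9% between 5 h and 24 h, and the median of all probes at 24 h moved to -0.11. The members' split went from 34 up and 2 down to 34 and 1 at 5 h, from 3 up and 17 down to 0 and 24 between 5 h and 15 h, and from 1 up and 21 down to 0 and 30 between 5 h and 24 h. With the beadchip as a replicate block 35, 18 and 12 members were called at 5 h, 15 h and 24 h, and with the replicate number as a block over 12 arrays 27, 13 and 11, so no count moved by over 1.5 times. The cause of these shifts was not tested. Signals near background limit Ccne2 and Cdc45, which are bounds.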
